A study of Mus musculus with 8 samples.

Results

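The genes described here encode the enzymes that build cholesterol and the proteins that switch those enzymes on through the transcription factor SREBP2. A fixed list of 26 gene symbols defined the set, and all 26 were found among the 56832 rows of the expression table. They comprised 19 enzymes, 6 control genes and the sterol carrier gene Stard4. Expression had been measured by RNA-seq in microglia, the resident macrophages of the brain, sorted by fluorescence from young adult male 5xFAD mice. This transgenic line carries mutant human amyloid precursor and presenilin genes, driven in neurons, and forms amyloid plaques. Both groups carried these transgenes and went through 4 weeks of intraperitoneal injections on 5 days of each week, followed by 2 weeks without injections. Mice of the ethanol group (n = 4 libraries) were given a 20% solution at 3 g/kg, and the controls (n = 4) were given saline alone. The comparison asks whether this exposure altered microglial transcripts.

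Cells make cholesterol from acetyl-CoA. Mevalonate enzymes build the isoprenoid unit, isoprenoid enzymes join it into longer chains, squalene enzymes fold the chain into lanosterol, and a last set trims lanosterol to cholesterol. When sterols run low, the escort SCAP carries SREBP2 from the endoplasmic reticulum to the Golgi. The proteases encoded by Mbtps1 and Mbtps2 cut it there, and the freed fragment enters the nucleus and activates most of these enzyme genes. INSIG1 and INSIG2 hold SCAP back when sterols are plentiful. In the adult brain astrocytes and oligodendrocytes are known as large producers of cholesterol, and microglia are known to take up and recycle it from lipoproteins and myelin debris.

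The libraries held between 14271351 and 17231301 reads assigned to genes. Values below are normalized counts, that is, counts divided by the authors' size factor for each library. All 10 microglial markers were abundant, the least abundant being Sall1 with at least 12750 in each library. All 10 astrocyte markers had a mean of at least 10, and together they made up 0.0411% to 0.0595% of the normalized counts, oligodendrocyte lineage markers 0.0185% to 0.0213% and neuron markers 0.000931% to 0.00219%. Of the defining markers, 1 of 11 oligodendrocyte lineage, 2 of 9 endothelial and mural and 5 of 8 lymphocyte genes were listed at 0 in all libraries. The share of microglial markers was 4.88 ± 0.134% after saline and 5.12 ± 0.0900% after ethanol (SD, n = 4 each), with an exact two-sided permutation p of 0.0571, where 0.0286 is the smallest the design allows. Whether each library is from a separate mouse is not in the labels, so p-values measure the spread between these libraries, which may be technical. In bulk RNA of sorted cells, fewer cells of a type and less RNA per cell cannot be told apart.

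The upstream regions of 4 members are shown first, because SREBP2 binds its target genes in such regions. Lss and Insig2 had all ethanol libraries above all saline libraries, Insig1 is the partner of Insig2 in sterol sensing, and Hmgcs1 held the one match to the sterol element searched. Each line gives the 250 bases before the transcription start, 5′ to 3′ in the direction of transcription, from RefSeq promoters of build GRCm38.p6. Capitals mark matches on either strand to 3 motifs: the sterol regulatory element pattern TCACNCCAC, the E-box CACGTG and the box CCAAT, which NF-Y, a partner of SREBP2, binds and which reads ATTGG on the other strand.
Hmgcs1: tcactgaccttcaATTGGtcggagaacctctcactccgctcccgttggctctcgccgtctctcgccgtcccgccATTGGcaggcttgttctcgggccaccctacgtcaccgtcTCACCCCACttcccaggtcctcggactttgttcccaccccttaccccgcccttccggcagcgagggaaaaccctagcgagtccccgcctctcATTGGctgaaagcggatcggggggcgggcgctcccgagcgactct
Lss: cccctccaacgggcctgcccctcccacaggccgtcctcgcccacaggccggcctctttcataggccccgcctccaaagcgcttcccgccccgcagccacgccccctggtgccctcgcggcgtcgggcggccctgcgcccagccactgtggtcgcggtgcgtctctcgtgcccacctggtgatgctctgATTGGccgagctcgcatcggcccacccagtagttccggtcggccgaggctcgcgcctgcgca
Insig1: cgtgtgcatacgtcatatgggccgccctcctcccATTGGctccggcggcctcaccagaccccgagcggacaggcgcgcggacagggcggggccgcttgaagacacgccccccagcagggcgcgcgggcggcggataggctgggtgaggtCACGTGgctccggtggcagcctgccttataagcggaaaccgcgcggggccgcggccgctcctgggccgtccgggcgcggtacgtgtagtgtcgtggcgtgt
Insig2: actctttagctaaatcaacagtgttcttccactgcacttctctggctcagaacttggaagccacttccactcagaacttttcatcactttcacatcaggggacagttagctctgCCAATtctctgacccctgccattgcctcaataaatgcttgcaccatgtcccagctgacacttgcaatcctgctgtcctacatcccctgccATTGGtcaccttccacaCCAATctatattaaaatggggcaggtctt
The regions lie at chr13:119690101-119690350 on the plus strand for Hmgcs1, chr10:76531355-76531604 on the plus strand for Lss, chr5:28071162-28071411 on the plus strand for Insig1 and chr1:121332590-121332839 on the minus strand for Insig2. No printed match overlapped another. The Hmgcs1 region held 3 CCAAT boxes and 1 sterol element, the Lss region 1 CCAAT box, and the Insig1 region 1 CCAAT box and 1 E-box. The printed Insig2 region held 3 CCAAT boxes. It was picked from the 3 listed for this gene as the one with the most CCAAT boxes, and the others held 0 matches to each motif.

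RefSeq promoters were matched for 22 of the 26 members, with 28 start sites among them. The table held none for Fdps, Fdft1, Sqle and Stard4. CCAAT occurred before 18 of the 28 starts, or 64.3%, against 33.8% of all 32851 windows of the same length. CACGTG occurred before 5, or 17.9%, against 6.02%. TCACNCCAC occurred before 1, that of Hmgcs1, or 3.57%, against 1.05%. The shares are a description of letters and were not tested. Other forms of the sterol element were not searched, and which start these microglia use was not determined. Binding of SREBP2 to the members, Insig2 included, was not measured.

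Transcripts of all 26 members were measured in the sorted microglial samples, at levels that spanned a wide range. Per kilobase of annotated exon, mean levels over the 8 libraries ran from 6.14 ± 3.14 for Stard4 to 535 ± 46.6 normalized counts per kilobase for Ebp (SD). Ebp, which shifts a double bond in the sterol ring, stood first, and its lowest library (448) lay above the highest library of Insig2 (404), which came next at 351 ± 33.4. Ggps1, which makes the geranylgeranyl chain used to anchor small GTPases, followed at 287 ± 31.8, and its range overlapped that of Insig2. From Mbtps1 (176 ± 15.6) downward, each gene's range over the libraries overlapped that of the next gene in the order.

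Levels differed between neighbouring steps of the pathway. Hmgcs1, which makes HMG-CoA, had 97.7 ± 9.05 normalized counts per kilobase (SD, n = 8), while Mvk, the mevalonate kinase, had 21.5 ± 2.90. The 2 squalene enzymes Sqle and Lss, which oxidise squalene and close its rings, were among the lowest of the enzymes at 12.6 ± 4.26 and 18.4 ± 5.62. This order depends on exon length, which pools all annotated transcripts and was longest of the members for Lss, at 10787 bases. Undivided by length, Lss had a mean of 199 normalized counts and Sqle 69.8, against 150 for Fdft1, the third squalene enzyme. Farther down, Msmo1 (132 ± 15.4) and Sc5d (96.9 ± 15.6), a sterol oxidase and a sterol desaturase, were well above Hsd17b7 (15.5 ± 6.87), a sterol ketone reductase. Fdps, which makes farnesyl diphosphate, had only 7.30 ± 1.99.

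**Figure D1:**
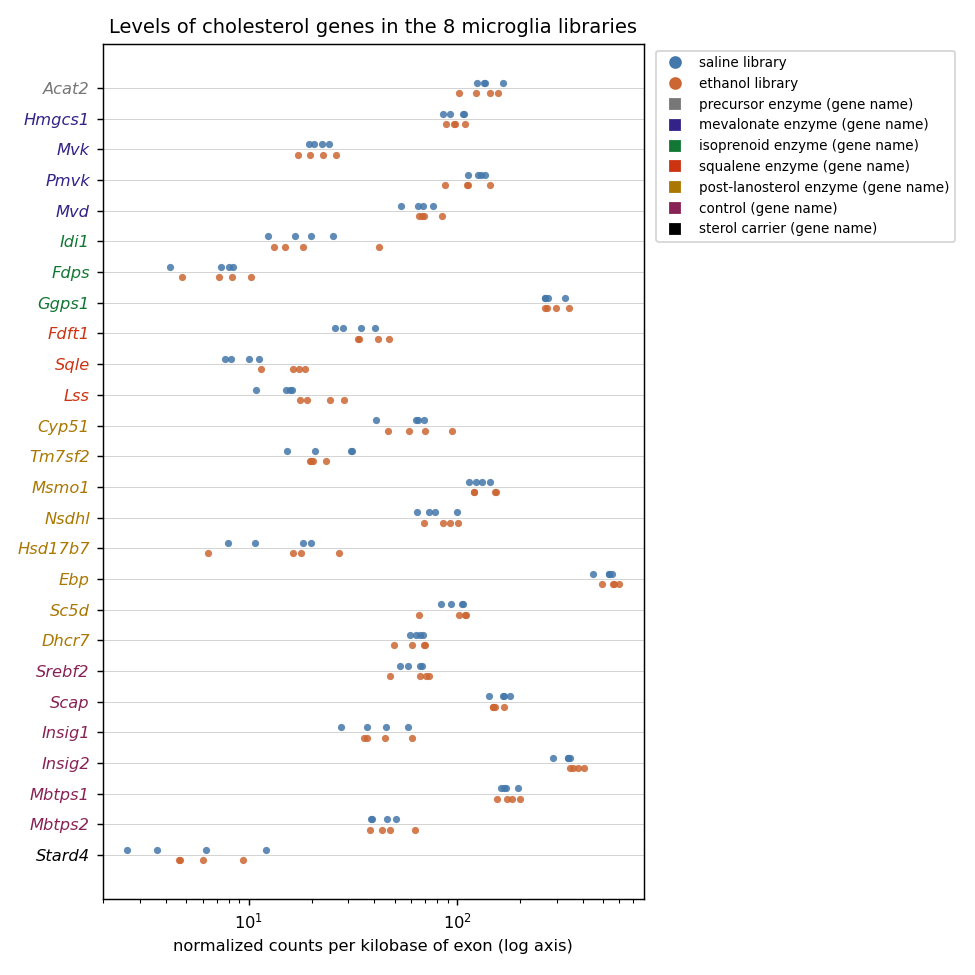
Level of each of the 26 genes per kilobase of exon (horizontal log axis, normalized counts per kilobase) in the 4 saline (blue) and 4 ethanol (orange) libraries, ordered along the pathway with gene names coloured by role. Ebp sits highest at a mean of 535 and Stard4 lowest at 6.14, and the 2 groups overlap for all genes but Sqle, Lss and Insig2.

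Some of these levels are uncertain because other genes share sequence with the member. Fdps matched 5 processed pseudogenes at an identity of at least 90% over at least 300 bases, the closest at 98.9%, and none of these had a mean above 0.383. Idi1, the isomerase of the isoprenoid unit, matched an identical pseudogene stretch of 684 bases. Acat2, which joins acetyl-CoA units, matched its neighbour Acat3 at 97.7% over 1477 bases, where Acat3 had a mean of 4.93. Acat2 also matched Tcp1 at 98.7% over 445 bases, and Tcp1 had a mean of 1081 normalized counts against 345 for Acat2. Fdft1, which makes squalene, shares 774 exon bases with Ctsb on the opposite strand, and Ctsb, a cathepsin gene of microglia, had a mean of 85914 normalized counts against 150 for Fdft1. The library kit does not mark strand, so reads of this stretch cannot be assigned from sequence alone. Tm7sf2 overlaps Vps51 over 532 exon bases on the same strand, and Cyp51 overlaps Akap9 over 166 on the other. Larger overlaps on the same strand were those of Mbtps2 with Yy2 (2867 bases) and of Fdps with Gm43738 (1124 bases). These stretches made up 28.4% of the Mbtps2 exon bases and 26.7% of those of Fdps. Yy2 and Gm43738 each had a mean of 0. Whether reads shared with these genes, or with the pseudogenes of Fdps, were left out of the members' counts was not tested.

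No member passed the test for a difference between ethanol and saline. In limma, 0 of 26 members had a Benjamini-Hochberg adjusted p under 0.05, as had 0 of all 14428 genes tested (0%), and the smallest adjusted p among the members was 0.997. All 26 members passed the filter on low values, a mean of at least 10 normalized counts over the 8 libraries. At an unadjusted p under 0.05 there were 2 members, both higher in ethanol, against 524 genes, or 3.63%, over all genes tested. With edgeR, DESeq2 and voom on the recovered reads 0 genes were called, and 495, 558 and 546 genes had an unadjusted p under 0.05, of which 2 in each were members. In 3 members the 4 ethanol libraries lay above all 4 saline libraries, where 2.32% of all genes had groups that did not overlap and 1.12% had this order. No member had the reverse order, though Pmvk did without ethanol 4. The members were chosen with results of these libraries known, so these counts describe the set and are not support for a change in it.

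The fold changes of the members leaned to the higher side. The log2 fold change was positive for 19 members and negative for 7, with a median log2 value of 0.10, while over all genes tested 48.8% were positive and the median was -0.01. Without ethanol 4 the median of the members was 0.02, and without saline 2 it was 0.05. The 95% interval of 15 members excluded a 1.5-fold change in either direction, and that of 21 members excluded a 2-fold change. Over all 14428 genes tested these counts were 8117 and 10555. All members together held 0.0704% to 0.0781% of the assigned reads after saline and 0.0739% to 0.0814% after ethanol.

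**Figure D2:**
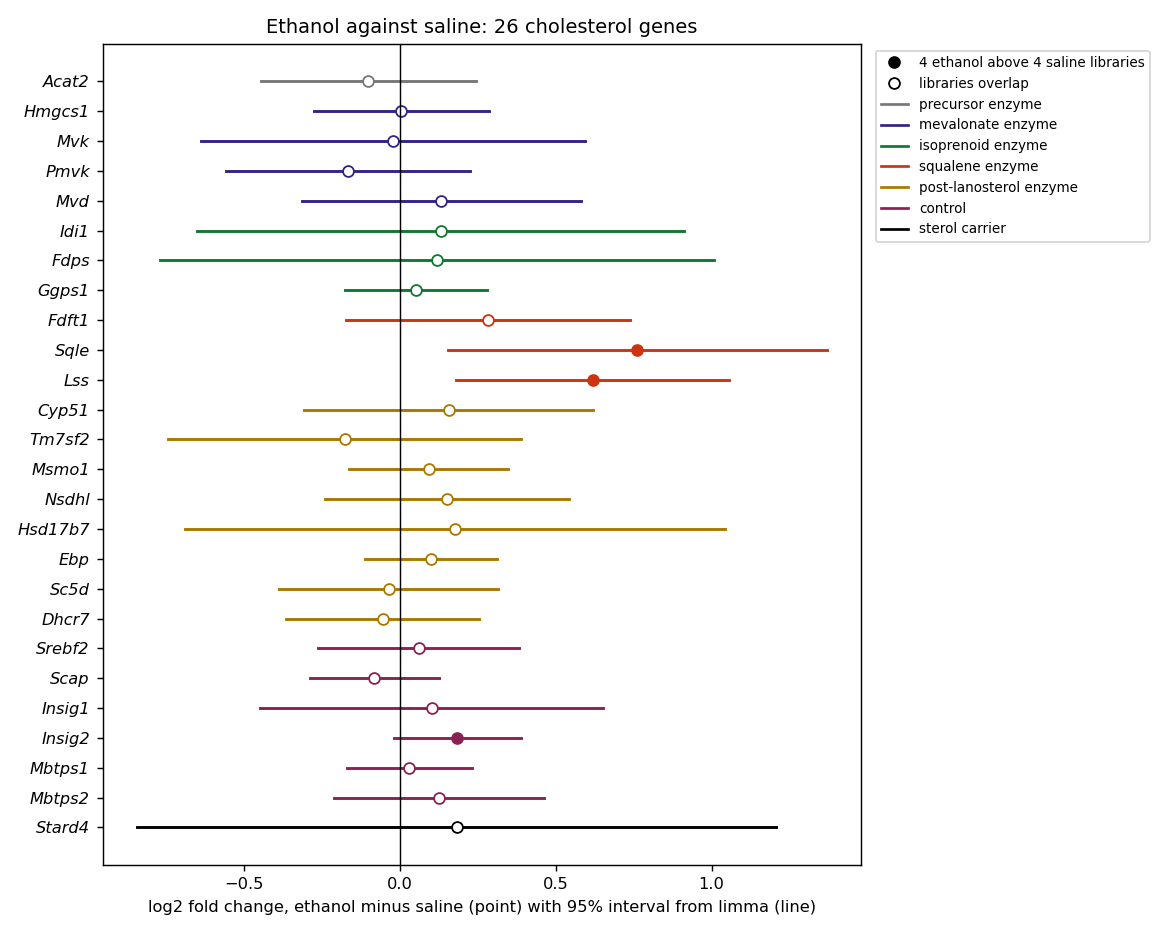
Log2 fold change of ethanol minus saline for each gene in pathway order (points) with its 95% interval from limma (lines), coloured by role; filled points are genes whose 4 ethanol libraries lay above all 4 saline libraries. Sqle at 0.76 and Lss at 0.62 are the farthest to the right, and all other intervals cross 0.

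The squalene enzymes stood farthest from equality. Sqle encodes squalene epoxidase, a rate-limiting step of the sterol branch. It had 55.5, 42.5, 62.2 and 45.4 normalized counts in saline 1 to 4, and 63.0, 90.2, 103 and 96.7 in ethanol 1 to 4. The groups did not overlap, but ethanol 1 lay within 1 count of saline 3. The means were 51.4 ± 9.10 and 88.3 ± 17.7 (SD, n = 4 each). Fitted on log2(value + 1), the fold change was 1.70, with a 95% interval from 1.11 to 2.58. Its limma p was 0.0171 before adjustment, the 140th smallest of 14428, and 0.997 after it. Counting error alone would give an SD of 0.18 on the log2 scale at this depth. The SD observed over the 8 libraries was 0.48, which includes the difference between the groups.

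Lss encodes lanosterol synthase, the enzyme after squalene epoxidase. Saline 1 to 4 had 173, 163, 170 and 117 normalized counts and ethanol 1 to 4 had 189, 205, 308 and 264. Each ethanol library exceeded each saline library, and ethanol 3 and 4 were the highest. The means were 156 ± 26.1 and 241 ± 54.9 (SD, n = 4 each), for a fold change of 1.53 (95% interval 1.13 to 2.08). The limma p was 0.00880 before adjustment and 0.997 after it. Fdft1, the first of the 3 squalene enzymes, had 136 ± 27.5 after saline and 165 ± 28.0 after ethanol, for a fold change of 1.22 (0.886 to 1.67), and its groups overlapped.

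All ethanol libraries of Sqle and Lss lay above all saline libraries, so a positive difference in every subset was fixed in advance. Only the sizes of the differences are described here. Within samples 1 and 2 the log2 difference was 0.63 for Sqle and 0.23 for Lss, and within samples 3 and 4 it was 0.90 and 1.01. For Insig2, described below and likewise without overlap of the groups, it was 0.08 and 0.28. This division of the samples was known from earlier results. Library names begin with 163, 164 or 165, and what these numbers stand for is not given. Within them the log2 difference was 0.72, 0.93 and 0.81 for Sqle and 0.85, 0.89 and 0.27 for Lss, each from 2 or 3 libraries and hence with no test. Over the 21 alternative fits, the log2 fold change ran from 0.68 to 0.91 for Sqle and from 0.49 to 0.73 for Lss, and the adjusted p stayed between 0.917 and 1.00 for both. The astrocyte marker share was lowest in ethanol 1 (0.0411%) and highest in ethanol 3 (0.0595%), which were also the lowest and highest ethanol libraries for both genes. In saline the share was highest in saline 4 (0.0557%), where Lss was lowest. The part of these cells in the result was not tested.

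**Figure D3:**
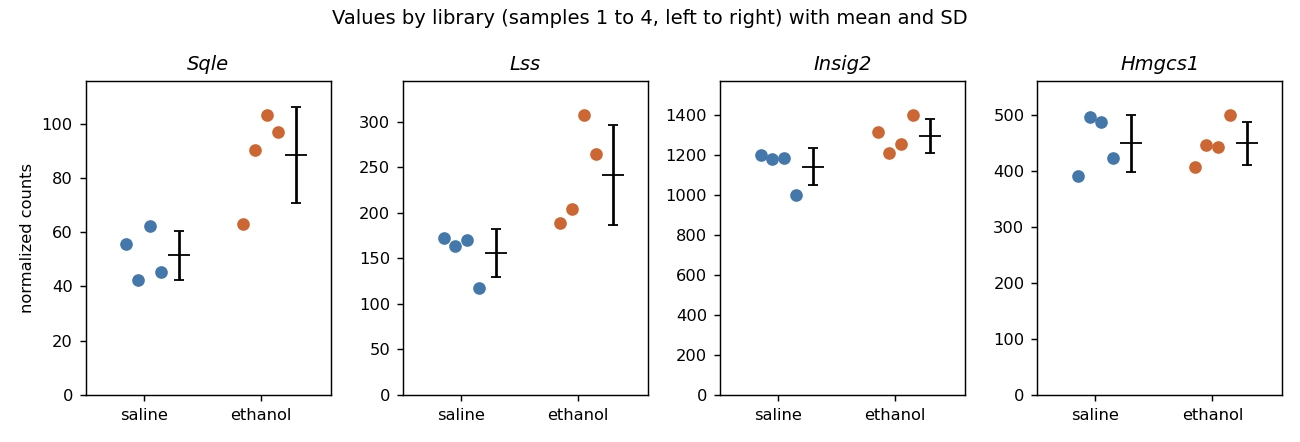
Normalized counts (vertical axis, from 0) of Sqle, Lss, Insig2 and Hmgcs1 in the 4 saline (blue) and 4 ethanol (orange) libraries, samples 1 to 4 from left to right, with the mean and SD of each group in black. The groups separate for Sqle (at most 62.2 against at least 63.0), Lss (173 against 189) and Insig2 (1202 against 1210) and overlap for Hmgcs1.

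Enzymes before squalene did not share this pattern. Hmgcs1 had 390, 495, 487 and 423 normalized counts after saline and 407, 446, 442 and 500 after ethanol. Its group means of 449 ± 50.7 and 449 ± 38.3 (SD, n = 4 each) were equal within rounding, with a fold change of 1.00 (95% interval 0.825 to 1.22). The kinase genes Mvk and Pmvk had fold changes of 0.984 (0.642 to 1.51) and 0.891 (0.679 to 1.17), and Mvd, which makes isopentenyl diphosphate, had 1.10 (0.804 to 1.49). Acat2 had 356 ± 44.2 and 334 ± 62.1, for a fold change of 0.931 (0.733 to 1.18). In these 5 genes the groups overlapped.

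Isoprenoid enzymes also overlapped between the groups. Idi1 had 58.3, 43.4, 88.7 and 69.9 normalized counts after saline and 52.1, 46.1, 147 and 63.8 after ethanol. Ethanol 3 alone was above the saline range, and without it the log2 fold change of Idi1 turned from 0.13 to -0.23. Ggps1 had means of 1331 ± 147 and 1382 ± 171 (SD, n = 4 each), for a fold change of 1.04 (95% interval 0.885 to 1.21). Fdps, with 29.4 ± 8.09 and 32.0 ± 9.66 (SD, n = 4 each), had an interval of 0.586 to 2.01 around a fold change of 1.08, which does not exclude a 2-fold increase. The SD of Fdps over the 8 libraries was 0.42 on the log2 scale, where counting error gives 0.27.

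Of the 8 enzymes after lanosterol, 5 had positive and 3 negative fold changes, and none had groups that stood apart. Cyp51, the lanosterol demethylase, had 286, 307, 180 and 281 normalized counts after saline and 310, 259, 206 and 416 after ethanol. Sample 3 was the lowest in both groups, and the fold change was 1.11 (95% interval 0.807 to 1.54). Msmo1 had 784 ± 75.4 and 839 ± 115 (SD, n = 4 each), for a fold change of 1.07 (0.893 to 1.27). Nsdhl, a sterol dehydrogenase of the demethylation complex, had a fold change of 1.11 (0.845 to 1.46). Ebp had 3 of 4 ethanol libraries above all saline libraries and a fold change of 1.07 (0.924 to 1.24). Tm7sf2, a sterol reductase, had the lowest fold change of this set at 0.884 (0.597 to 1.31), with 136 and 137 in saline 1 and 2 against 67.3 and 91.7 in saline 3 and 4.

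The last steps had group means that lay close together. Sc5d had 473 ± 52.5 after saline and 469 ± 103 after ethanol (SD, n = 4 each), for a fold change of 0.975 (95% interval 0.764 to 1.24). Ethanol 1, at 317, was the lowest of the 8, and without it the log2 fold change was 0.14. Dhcr7, the final reductase of one route to cholesterol, had 375 ± 22.3 and 363 ± 54.2, for a fold change of 0.962 (0.777 to 1.19), and ethanol 1 was again lowest at 290.

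Hsd17b7 varied most between libraries among the enzymes. It had 102, 40.5, 92.8 and 54.5 normalized counts after saline and 32.6, 83.2, 138 and 90.5 after ethanol. The highest was 4.25 times the lowest, and both extremes were ethanol libraries. Its SD on the log2 scale was 0.70, where counting error gives 0.18 and the median over all 4640 genes with means of 10 to 100 was 0.67. The 7 members in that band had a median SD of 0.48. Members in the band from 100 to 1000 had a median SD of 0.23 against 0.22 for all 6338 genes there, and the 5 members above 1000 had 0.13 against 0.13.

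Among the control genes, Insig2 was the one with groups apart. Saline 1 to 4 had 1202, 1177, 1185 and 1001 normalized counts and ethanol 1 to 4 had 1313, 1210, 1253 and 1401. The gap between the groups, from 1202 to 1210, was narrow, and saline 4 was far below the other saline libraries. The means were 1141 ± 94.0 and 1294 ± 83.0 (SD, n = 4 each), for a fold change of 1.14 (95% interval 0.985 to 1.31). It had a limma p of 0.0756 before adjustment and 0.997 after it. Without saline 4 the log2 fold change fell from 0.18 to 0.12. Its partner Insig1, itself a target of SREBP2, had 114, 141, 85.6 and 179 after saline and 110, 114, 138 and 188 after ethanol. These groups overlapped throughout, with a fold change of 1.07 (0.733 to 1.57).

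The transcription factor gene and its escort had groups that overlapped. Srebf2, which encodes SREBP2, had 440 ± 48.3 normalized counts after saline and 462 ± 82.0 after ethanol (SD, n = 4 each), for a fold change of 1.04 (95% interval 0.833 to 1.30). Scap had 1214 ± 112 and 1144 ± 67.7, for a fold change of 0.944 (0.818 to 1.09). Mbtps1 and Mbtps2 had fold changes of 1.02 (0.888 to 1.17) and 1.09 (0.863 to 1.38). For Mbtps2, ethanol 3 was the highest at 631, and without it the log2 fold change was -0.01. Stard4, which carries sterols between membranes, was scarce and uneven, with 67.5, 20.3, 34.7 and 14.5 after saline and 33.7, 52.1, 26.1 and 25.7 after ethanol. Its fold change of 1.13 had an interval from 0.557 to 2.31.

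The members did not move as one block across the libraries. Each library had some members above and some below their own mean, from 8 of 26 above in saline 3 to 18 in ethanol 4. The mean deviation of the members on the log2 scale was 0.16 in ethanol 4, 0.08 in ethanol 3, 0.08 in ethanol 2 and -0.10 in ethanol 1. In saline 1 to 4 it was 0.05, -0.09, -0.09 and -0.09. Ethanol 1 was thus the lowest library of all, and the groups overlapped.

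**Figure D4:**
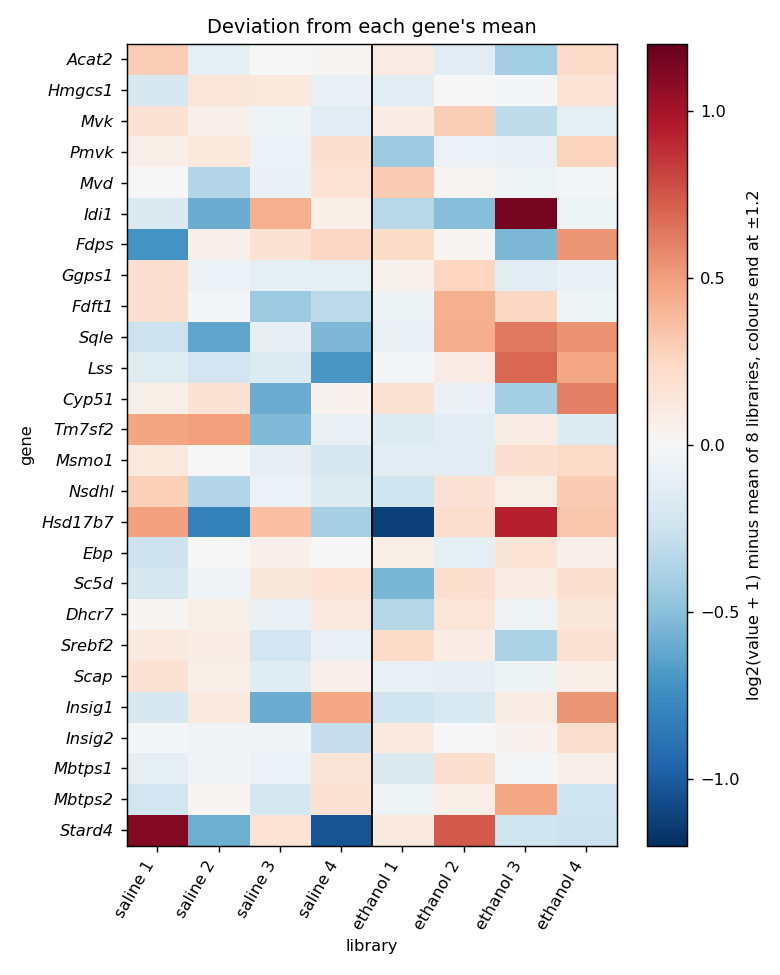
Deviation of each gene (rows, pathway order) from its own mean over the 8 libraries, as log2(value + 1), in each library (columns, saline left of the line). Rows differ in which libraries are red or blue: Sqle and Lss are mostly blue in saline and red in ethanol columns, while Hsd17b7, Idi1 and Stard4 have strong colours on both sides.

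Over the 325 pairs of members, the Pearson r across the 8 libraries had a median of 0.07, and 57.8% of the pairs were positive. The r of the members with the 14402 other tested genes had a median of -0.00, with 49.6% positive. Values of r over 0.5 were found in 14.2% of member pairs and in 11.0% of pairs with other genes, and values under -0.5 in 5.54% and 11.1%. No pair passed an exact permutation test over all pairings after Benjamini-Hochberg adjustment over the 325 pairs, where the smallest adjusted p was 0.153. Before adjustment 17 pairs, or 5.23%, had a p under 0.05. Spearman's rho gave 12 such pairs and a smallest adjusted p of 0.363. All pairs share the same 8 libraries and their size factors. After removing the group means the median r was 0.07, and after also removing the difference of samples 1 and 2 from samples 3 and 4 it was 0.10.

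Sqle and Lss, neighbours in the pathway, gave the highest r. It was 0.89 (exact permutation p = 0.00122, adjusted p = 0.197), with a rho of 0.95 (exact permutation p = 0.00114, adjusted p = 0.363). Without the 2 libraries farthest from the median of Sqle the r was 0.75, and without those farthest from that of Lss it was 0.88. After removing the group means it was 0.71. With the division of the samples also removed it was 0.69, and with the library name number in its place 0.49. Mvk and Ggps1 followed at an r of 0.88 (exact permutation p = 0.000471, adjusted p = 0.153) and a rho of 0.93 (exact permutation p = 0.00223, adjusted p = 0.363), and at an r of 0.86 without the 2 libraries farthest for Mvk and 0.72 without those farthest for Ggps1. Cyp51 and Srebf2, a target and its factor, had an r of 0.82 (exact permutation p = 0.0110, adjusted p = 0.429), a rho of 0.90 (exact permutation p = 0.00456, adjusted p = 0.371) and an r of 0.88 without the 2 libraries farthest from the median of Cyp51. Without those farthest from the median of Srebf2 the r was 0.50, so that this relation too was weaker without them.

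The other 2 of the 5 highest pairs involved Dhcr7. Pmvk and Dhcr7 had an r of 0.87 (exact permutation p = 0.00796, adjusted p = 0.429) and a rho of 0.60 (exact permutation p = 0.132, adjusted p = 0.989). Sc5d and Dhcr7, which act in succession, had an r of 0.82 (exact permutation p = 0.0312, adjusted p = 0.597) and a rho of 0.79 (exact permutation p = 0.0279, adjusted p = 0.908). Without the 2 libraries farthest from the median of the first gene these r were 0.49 and 0.33. Without those farthest from the median of Dhcr7 they were 0.50 and 0.58, so that both relations were weaker without such libraries. Ethanol 1 was the lowest library for all 3 genes. With group means and the division removed, the r was 0.74 for Mvk with Ggps1, 0.89 for Cyp51 with Srebf2, 0.90 for Pmvk with Dhcr7 and 0.89 for Sc5d with Dhcr7. With the library name number in place of the division these were 0.93, 0.44, 0.90 and 0.95.

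The lowest r were of similar size. Acat2 and Mbtps2 had an r of -0.88 (exact permutation p = 0.00531, adjusted p = 0.429) and a rho of -0.79 (exact permutation p = 0.0279, adjusted p = 0.908). Idi1 and Srebf2 had an r of -0.87 (exact permutation p = 0.00588, adjusted p = 0.429) and a rho of -0.62 (exact permutation p = 0.115, adjusted p = 0.989). Mvk and Idi1 had an r of -0.82 (exact permutation p = 0.0112, adjusted p = 0.429) and a rho of -0.76 (exact permutation p = 0.0368, adjusted p = 0.989). Without the 2 libraries farthest from the median of the first gene the r were -0.62, -0.34 and -0.57. Without those farthest for the other gene they were -0.63, -0.34 and -0.72, so the relation of Idi1 with Srebf2 rests on those libraries. With group means and the division of the samples removed, these r were -0.86, -0.84 and -0.49, and with the library name number in place of the division they were -0.94, -0.74 and -0.65.

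Srebf2 had both positive and negative r with the enzymes. Its r with the 19 genes ran from -0.87 for Idi1 to 0.82 for Cyp51. Among enzymes alone the median r over 171 pairs was 0.07, and among the 8 enzymes after lanosterol it was 0.15 over 28 pairs. The 3 pairs of squalene enzymes had r of 0.50 to 0.89, and the 15 pairs of control genes had a median of -0.00.

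**Figure D5:**
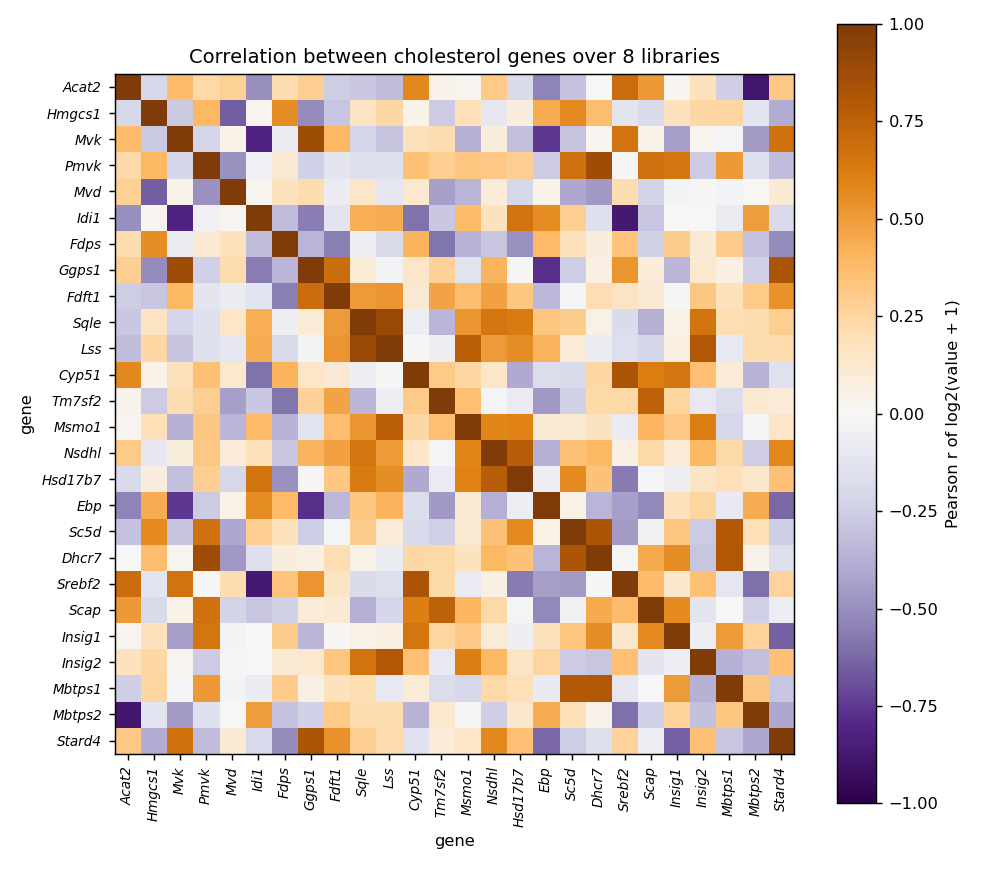
Pearson r of log2(value + 1) over the 8 libraries between each 2 of the 26 genes, in pathway order on both axes, from purple (-1) to brown (1). Brown and purple cells are scattered over the matrix, with a median of 0.07, and the darkest cells off the diagonal include Sqle with Lss (0.89) and Acat2 with Mbtps2 (-0.88).

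Among the 10 genes outside the set whose levels were most like the mean of the members over the 8 libraries were Fgl2, Hps6, Zswim1, Fzd7, Sgf29, Rab31, Tmem175, Ciao3 and Slc25a23. The 10 were taken from 9167 genes with a mean of at least 100, with r from 0.98 for Fgl2 to 0.89 for Slc25a23. Of those 9167 genes 6 had an r over 0.9 and 20 an r under -0.9.

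No further gene of the pathway passed the test. A list of 52 held more enzymes, lipid genes that SREBP factors regulate, sterol transport genes, ubiquitin ligases and membrane proteins that set the turnover of the sterol sensors, and the branch that makes dolichol, ubiquinone and prenyl anchors. Of the 48 tested, 0 passed in limma, the fold change was above 1 for 24 and below 1 for 24, and the median log2 value was 0.01. Positive fold changes were found in 5 of 10 enzymes, 8 of 17 SREBP targets and sterol transport genes, 5 of 12 genes of sensor control and 6 of 9 genes of the isoprenoid branch.

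Only 2 genes of that list met the rule for being named. Of the 48 tested, 1 (2.08%) had groups that did not overlap, against 2.32% of all genes tested. An unadjusted limma p under 0.05 was found in 1 (2.08%), against 3.63% of all genes. Pgrmc1, which encodes a heme-binding membrane protein that partners sterol enzymes, had 1285 ± 191 normalized counts after saline and 1549 ± 148 after ethanol (SD, n = 4 each). Its fold change was 1.21 (95% interval 1.03 to 1.42), and its groups overlapped. The limma p of Pgrmc1 was 0.0232 before adjustment and 0.997 after it. Nus1, a subunit of the enzyme that starts dolichol synthesis, had 823, 859, 851 and 754 after saline and 910, 1073, 860 and 912 after ethanol. Its groups did not overlap, with a fold change of 1.14 (0.977 to 1.33) and an adjusted p of 0.997.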

How the data were processed

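RNA-seq was done on sorted microglia in 4 saline and 4 ethanol libraries. Each library began with 500 pg of RNA, amplified as cDNA and sequenced in 150 nt paired ends, per the labels' protocols. The submitters' processing notes list STAR 2.7.9a, featureCounts 2.0.1, Salmon 1.5.2, DESeq2 and build GRCm39. The sources used here do not give their settings. The authors deposited signal values per gene, which are normalized counts. In each library they were whole multiples of 1 step, and dividing by it gave whole reads within 1e-06 for 100% of values. DESeq2 size factors computed from these reads matched the steps in 8 of 8 libraries within 1e-06. The protocols name no molecular identifiers, so amplified reads may not be independent molecules.

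The main test was limma 3.58.1 (R 4.3.3), two-sided with a mean-variance trend, applied to log2(value + 1) of 14428 genes with a mean of at least 10, and Benjamini-Hochberg adjusted. Folds understate changes of low genes. Correlations used exact permutations of the libraries. Exon lengths and overlaps came from GENCODE M21 (GRCm38) by symbol, and similar transcripts from minimap2 2.31. Alternatives included edgeR 4.0.16 and DESeq2 1.42.0 on recovered reads. Scripts were tested on simulated data.

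The members and lists were chosen with earlier results of these data known. All 26 members are named. Other pathway genes are named where groups did not overlap or the unadjusted p was under 0.05, and so are genes among the 10 most like the members' mean, of which 1 is not reported here, and the 5 highest and 3 lowest pairs. Marker shares of border macrophages (0.00798 ± 0.00574% in saline, 0.00593 ± 0.00133% in ethanol), neutrophils (0.0392 ± 0.0304% and 0.0323 ± 0.0198%) and endothelial and mural cells (0.00387 ± 0.000287% and 0.00415 ± 0.000344%) were computed too (SD, n = 4 each). Sample groups came from the titles.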

Additional observations from a re-analysis of the deposited data

Results flagged for a closer look

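Values of 26 genes in 2 groups gave 52 sets of 4 libraries, of which 3 had a library whose gap to its nearest neighbour, as a share of the range, exceeded Dixon's 95% critical value. Chance gives about 1 in 20. Ggps1 was 1550 normalized counts in saline 1, against 1241 to 1288 in the other saline libraries. Tm7sf2 was 103 in ethanol 3, against 86.9 to 89.2. Insig2 was 1001 in saline 4, against 1177 to 1202.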

How the results depend on the processing

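No alternative called a member or any gene. Over 21 alternatives, 11 of 26 members kept the direction of their fold change throughout. Sqle, Lss and Insig2 were among them, but their groups did not overlap, so leaving out a library could not reverse them. The direction changed in 15 members when a library was left out. Log2 fold changes then ran from -0.20 to 0.015 for Acat2, -0.021 to 0.32 for Cyp51, -0.11 to 0.048 for Dhcr7, -0.10 to 0.32 for Fdps, -0.026 to 0.13 for Ggps1, -0.062 to 0.052 for Hmgcs1, -0.11 to 0.58 for Hsd17b7, -0.23 to 0.32 for Idi1, -0.079 to 0.27 for Insig1, -0.028 to 0.093 for Mbtps1, -0.010 to 0.23 for Mbtps2, -0.12 to 0.074 for Mvk, -0.11 to 0.14 for Sc5d, -0.0074 to 0.20 for Srebf2 and -0.14 to 0.58 for Stard4. With array quality weights Hmgcs1 was at -0.0025 and Mvk at 0.020, and with the library name number as a covariate Hmgcs1 was at -0.0078 and Sc5d at 0.0089. Leaving out each library gave 16 to 20 positive members, a median of 0.023 to 0.12, and 3 to 4 members with all ethanol above all saline libraries. For other pathway genes these omissions gave 23 to 26 positive genes and a median of -0.0081 to 0.016. The case with 4 was that without ethanol 2, where Ebp was added. The co-variation fit with the library name number was chosen after seeing the data and gave a median r of 0.08. The median r between members moved to 0.025 without the 2 libraries farthest from the median of the first gene.

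Sample numbers are shared by the groups, but same-numbered libraries correlated in their deviations at only 0.01 to 0.08, and 2 of 8 libraries correlated best with their own number. With the replicate block limma called 0 genes, 645 had an unadjusted p under 0.05, the members' median log2 fold change stayed at 0.10 and the median r between members was 0.18. In the 7 members with means under 100 normalized counts, counting error gives an SD of 0.15 to 0.27 on the log2 scale and the SD over the 8 libraries was 0.19 to 0.70, with Mvk alone at its counting error (0.19 for both).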
